A study of Macaca mulatta with 10 samples.

Results

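The class IIa histone deacetylases *HDAC4*, *HDAC5*, *HDAC7* and *HDAC9* and the MEF2 transcription factors *MEF2A*, *MEF2C* and *MEF2D* were examined in skeletal muscle and adipose tissue of rhesus monkeys. The genes were chosen by name, as proteins downstream of protein kinase D, and each was found as 1 of the 28595 Ensembl macaque genes in the files, 7 genes in all. RNA-Seq of poly(A) RNA was available from 5 male animals, with 1 library of each tissue per animal and 10 libraries in all. The hyperinsulinemic case, rhesus_950807, carried the heterozygous nonsense mutation *PRKD2* K410X, and the 4 controls were rhesus_920401, rhesus_940129, rhesus_940313 and rhesus_950509, whose values are given in this order throughout. No treatment was given in the labels, ages are not stated there, and all animals were kept on the same chow. The libraries had 30669915 to 43268985 mapped reads. The authors gave read counts per gene and RPKM, in which reads are set against the length of the transcript and the mapped total. The tissue labels were borne out by most of their markers. *ACTA1*, the actin of skeletal muscle, was at 24384 to 34057 RPKM in muscle, and *ADIPOQ*, which encodes adiponectin, at 631 to 1491 RPKM in adipose tissue. Of the 8 adipocyte markers found, 7 were higher in control adipose tissue than in control muscle. *FABP4* went the other way, at 0.254 to 3.44 RPKM in control adipose tissue and 27.7 to 68.7 RPKM in control muscle. The adipose libraries of rhesus_920401 and rhesus_940313 also held *ACTA1* at 101 and 80.9 RPKM, against 0.444 to 1.72 RPKM in the other adipose libraries.

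MEF2 factors bind DNA of muscle and metabolic genes and activate them, and class IIa HDACs bind MEF2 and turn those genes off. Protein kinase D and calmodulin-dependent kinases phosphorylate the HDACs, which are then held by 14-3-3 proteins and leave the nucleus, so that MEF2 is released. In skeletal muscle this switch is known for the control of oxidative fiber genes and of *SLC2A4*, the insulin-responsive glucose transporter. The switch works through protein phosphorylation and location, which mRNA levels do not show.

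The 7 genes lie on 7 chromosomes, in a build of the macaque genome for which no name was given in the sources used here. *HDAC4* (ENSMMUG00000006077) is on chromosome 12 from 102932880 to 103115207, *HDAC5* (ENSMMUG00000006806) on chromosome 16 from 54159620 to 54208123 and *HDAC7* (ENSMMUG00000021655) on chromosome 11 from 44863139 to 44870654. *HDAC9* (ENSMMUG00000011170) is on chromosome 3 from 107141319 to 107643094, where 2 other annotated genes overlap it without a read in any library. All HDAC genes are on the minus strand. *MEF2A* (ENSMMUG00000018122) is on the plus strand of chromosome 7 from 79596951 to 79756335. *MEF2C* (ENSMMUG00000019836) and *MEF2D* (ENSMMUG00000016696) are on the minus strands of chromosome 6 from 85004060 to 85189443 and of chromosome 1 from 135070128 to 135109021. The longest annotated transcripts had 4342 to 7256 bases, except for *HDAC7*, whose model had only 1443 bases. RPKM divides by that length, so the level of *HDAC7* relative to the other genes rests on a short gene model.

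In control muscle the family was led by *MEF2D*, *MEF2C* and *HDAC5*, and in control adipose tissue by *HDAC5*, *MEF2A* and *HDAC7*. In muscle, mean levels were 23.6 ± 5.23 RPKM for *MEF2D*, 19.1 ± 4.30 for *MEF2C* and 15.7 ± 3.38 for *HDAC5* (SD, n = 4), and the ranges of these neighbors overlapped. *MEF2A* followed at 3.65 ± 0.620 RPKM, below *HDAC5* in 4 of 4 animals and without overlap, and its range overlapped that of *HDAC7* at 2.35 ± 0.640 RPKM. *HDAC4* at 1.07 ± 0.122 RPKM and *HDAC9* at 0.404 ± 0.0692 RPKM came last and overlapped neither each other nor *HDAC7*. In adipose tissue the 5 leading genes each overlapped their neighbor, at 16.4 ± 5.64 RPKM for *HDAC5*, 10.4 ± 3.81 for *MEF2A*, 10.3 ± 3.75 for *HDAC7*, 7.11 ± 1.39 for *MEF2D* and 4.97 ± 1.77 for *MEF2C*. *HDAC4* at 1.92 ± 0.382 RPKM and *HDAC9* at 0.190 ± 0.165 RPKM were again the lowest and again did not overlap their neighbors.

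**Figure D1:**
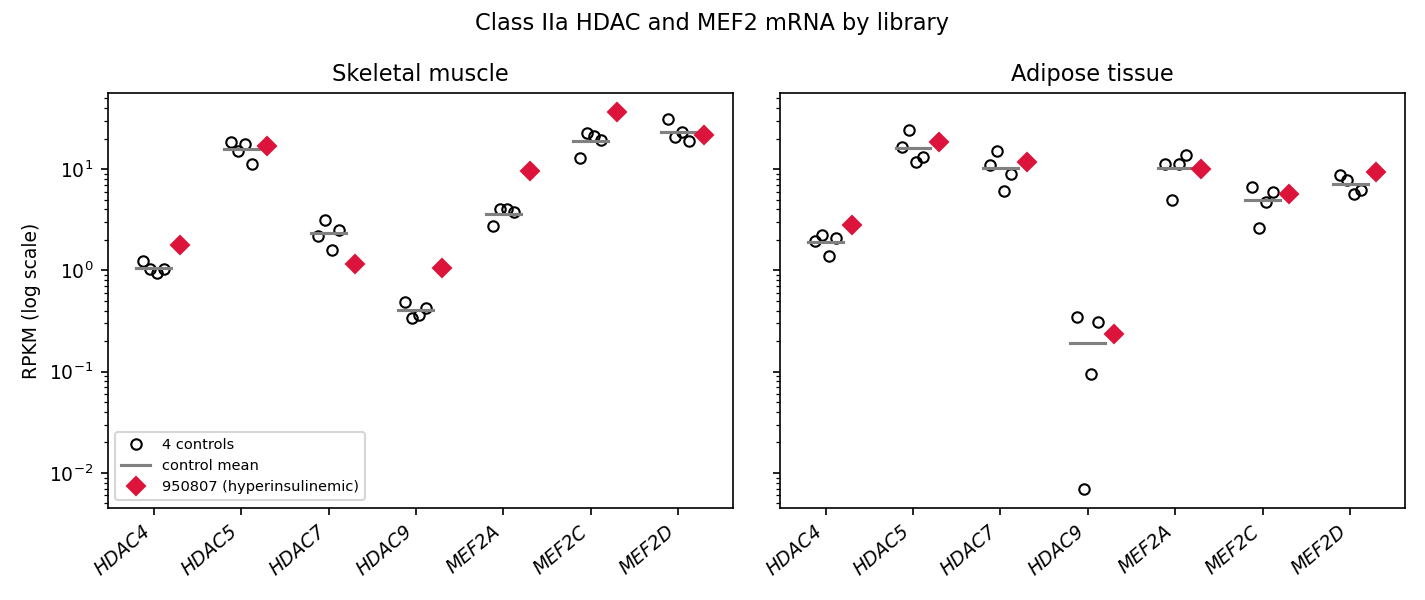
RPKM of the 7 genes on a log axis in skeletal muscle (left) and adipose tissue (right). Open circles are the 4 controls, grey bars their mean and red diamonds the hyperinsulinemic monkey, rhesus_950807, whose muscle lies above all controls for *HDAC4*, *HDAC9*, *MEF2A* and *MEF2C* and below them for *HDAC7*.

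The tissues were first compared within the 4 controls, the only comparison with several animals on both sides. *MEF2C* and *MEF2D* mRNA was far lower in adipose tissue than in muscle. *MEF2C*, the MEF2 factor that is induced during muscle differentiation, was at 12.9, 22.5, 21.3 and 19.5 RPKM in control muscle and at 6.61, 2.60, 4.70 and 5.96 RPKM in adipose tissue of the same animals. Each adipose library was below each muscle library. On the log2 scale adipose tissue differed from muscle by −3.32 (standard error 0.313, 95% interval −4.00 to −2.63, edgeR with TMM scaling, adjusted p 4.71e-06). *MEF2D*, an activator that is present in many tissues, was at 31.0, 20.7, 23.3 and 19.2 RPKM in muscle and at 8.72, 7.78, 5.69 and 6.26 RPKM in adipose tissue of the same animals. Here too the tissues did not overlap, with a log2 difference of −3.12 (standard error 0.241, 95% interval −3.65 to −2.60, adjusted p 1.03e-06). Both genes were lower in adipose tissue in all 13 alternative settings, by −3.56 to −1.78 for *MEF2C* and by −3.32 to −1.59 for *MEF2D*, with adjusted p values of at most 0.000193 and 6.07e-05. Without the adipose libraries of rhesus_920401 and rhesus_940313 the differences were −3.52 and −3.10.

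For the other genes the comparison depended on how the libraries were scaled. In control muscle 30.3% to 32.9% of the reads in genes came from the 10 most abundant ones, and in control adipose tissue 5.97% to 8.09%. TMM, which trims such genes, gave a median log2 difference of all genes of 0.23, and scaling to the mapped reads, as in RPKM, gave 1.61. Of the genes called, 57.4% were higher in adipose tissue with TMM and 89.8% with the mapped totals. A gene at the same RPKM in both tissues was therefore low in adipose tissue relative to most genes. With TMM, 3 of the 6 members tested were called lower and 0 higher, where 22.0% of the 11173 genes tested were lower, 29.6% higher and 51.6% called in all, at an adjusted p under 0.05 and an absolute log2 difference of at least 1. With the mapped totals, *MEF2C* and *MEF2D* were lower and *HDAC7* and *MEF2A* higher, where 7.15% of all genes were lower, 63.0% higher and 70.2% called in all.

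*HDAC5*, the most abundant deacetylase of the class in both tissues and a substrate of protein kinase D, was at 18.7, 15.0, 17.9 and 11.2 RPKM in muscle and at 16.5, 24.3, 11.7 and 13.1 RPKM in adipose tissue. The tissues overlapped in RPKM. With TMM *HDAC5* was lower in adipose tissue by a log2 difference of −1.33 (standard error 0.265, adjusted p 0.00109 from edgeR), which turned to 0.06 (standard error 0.274, adjusted p 0.845) with the mapped totals. *HDAC4*, which links nerve activity to muscle genes, was at 1.24, 1.04, 0.953 and 1.04 RPKM in muscle and at 1.94, 2.26, 1.39 and 2.11 RPKM in adipose tissue, without overlap. Its log2 difference of −0.54 (standard error 0.278, adjusted p 0.112) also turned, to 0.85 (standard error 0.287, adjusted p 0.0170), with the mapped totals, where it stayed below the fold needed for a call.

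*HDAC7*, known for its role in endothelium and lymphocytes, was at 2.21, 3.13, 1.59 and 2.50 RPKM in muscle and at 11.1, 15.0, 6.08 and 8.96 RPKM in adipose tissue of the same animals. Each adipose library was above each muscle library. The log2 difference was 0.74 (standard error 0.328, adjusted p 0.0672) with TMM and 2.13 (standard error 0.351, adjusted p 0.000177) with the mapped totals, and it was positive in all 13 alternative settings. The markers of endothelium summed to 42.2 to 64.1 RPKM in control muscle and 176 to 259 RPKM in control adipose tissue, with 10 of 12 listed genes found. Their median log2 difference was 0.99 with TMM and 2.36 with the mapped totals, beside 0.23 and 1.61 for all genes. Of the 10, 5 were called higher with TMM and 10 with the mapped totals, where 29.6% and 63.0% of all genes were. The part of endothelial cells in the level of *HDAC7* was not tested, and in whole tissue fewer cells of a type cannot be told apart from less RNA per cell.

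*MEF2A*, the member most tied to mature muscle and heart, was at 2.74, 4.07, 4.03 and 3.74 RPKM in muscle and at 11.4, 4.95, 11.3 and 13.9 RPKM in adipose tissue. All adipose libraries were above all muscle libraries in RPKM, that of rhesus_940129 by the least. Its log2 difference was 0.14 (standard error 0.296, adjusted p 0.695) with TMM, 1.51 (standard error 0.305, adjusted p 0.000757) with the mapped totals, and −0.01 with TMM when rhesus_950509 was left out. *HDAC9*, which MEF2 itself induces in muscle, was below the filter of a mean of 1 RPKM, with 89, 56, 74 and 72 reads in muscle and 53, 1, 17 and 57 reads in adipose tissue. Fitted without the filter, its log2 difference was −2.56 (standard error 0.755, adjusted p 0.0109 from edgeR) with TMM and −1.09 (standard error 0.799, adjusted p 0.238) with the mapped totals.

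**Figure D2:**
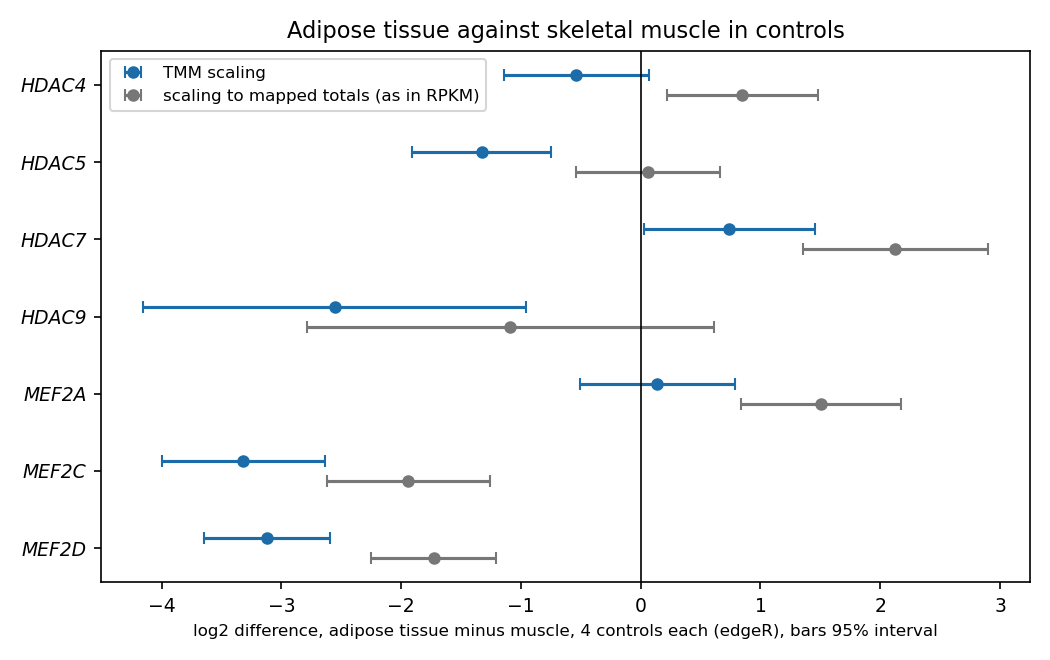
Log2 difference of each gene between adipose tissue and muscle of the 4 controls, with 95% intervals from edgeR, under TMM scaling (blue) and scaling to the mapped totals (grey), *HDAC9* without the filter. *MEF2C* and *MEF2D* were lower in adipose tissue under both, and *HDAC4* and *HDAC5* changed sign between them.

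A gene's share of the summed RPKM of its family is free of the scaling between libraries. Within the HDACs, *HDAC7* made up 9.76%, 16.1%, 7.63% and 16.5% in control muscle and 37.2%, 36.1%, 31.6% and 36.7% in their adipose tissue. The share of *HDAC5* was correspondingly lower in adipose tissue, at 56.9% ± 3.24 against 79.8% ± 5.47 (SD, n = 4). Counted in reads rather than per length, the share of *HDAC7* still differed, but by 9.78 percentage points in place of 22.9, and that of *HDAC5* by −11.3 in place of −22.9. *HDAC4* overlapped between the tissues at 5.56% ± 0.940 and 6.95% ± 1.34, and *HDAC9* was at 2.11% ± 0.496 in muscle and 0.735% ± 0.590 in adipose tissue, without overlap.

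Within the MEF2 factors, *MEF2A* made up 5.88%, 8.60%, 8.28% and 8.82% in control muscle and 42.6%, 32.3%, 52.0% and 53.2% in control adipose tissue. *MEF2A* was thus the least abundant MEF2 factor in every muscle library and the most abundant in 3 of 4 control adipose libraries, rhesus_940129 being the exception. *MEF2C* made up 41.2% ± 9.21 in muscle and 21.6% ± 3.33 in adipose tissue (SD, n = 4), again without overlap. *MEF2D* overlapped, at 50.9% ± 10.6 and 33.4% ± 12.1, through the 50.8% of the adipose library of rhesus_940129. The shares of 5 of the 7 genes did not overlap between the tissues, and 6 did not without rhesus_940129. Within a family a larger share of a gene lowers the shares of the others, so these are not separate results. No such count was made over all genes, of which 51.6% were called between the tissues with TMM and 70.2% with the mapped totals. The summed MEF2 factors were 2.06 to 2.80 times the summed HDACs in control muscle and 0.369 to 1.13 times in control adipose tissue.

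**Figure D3:**
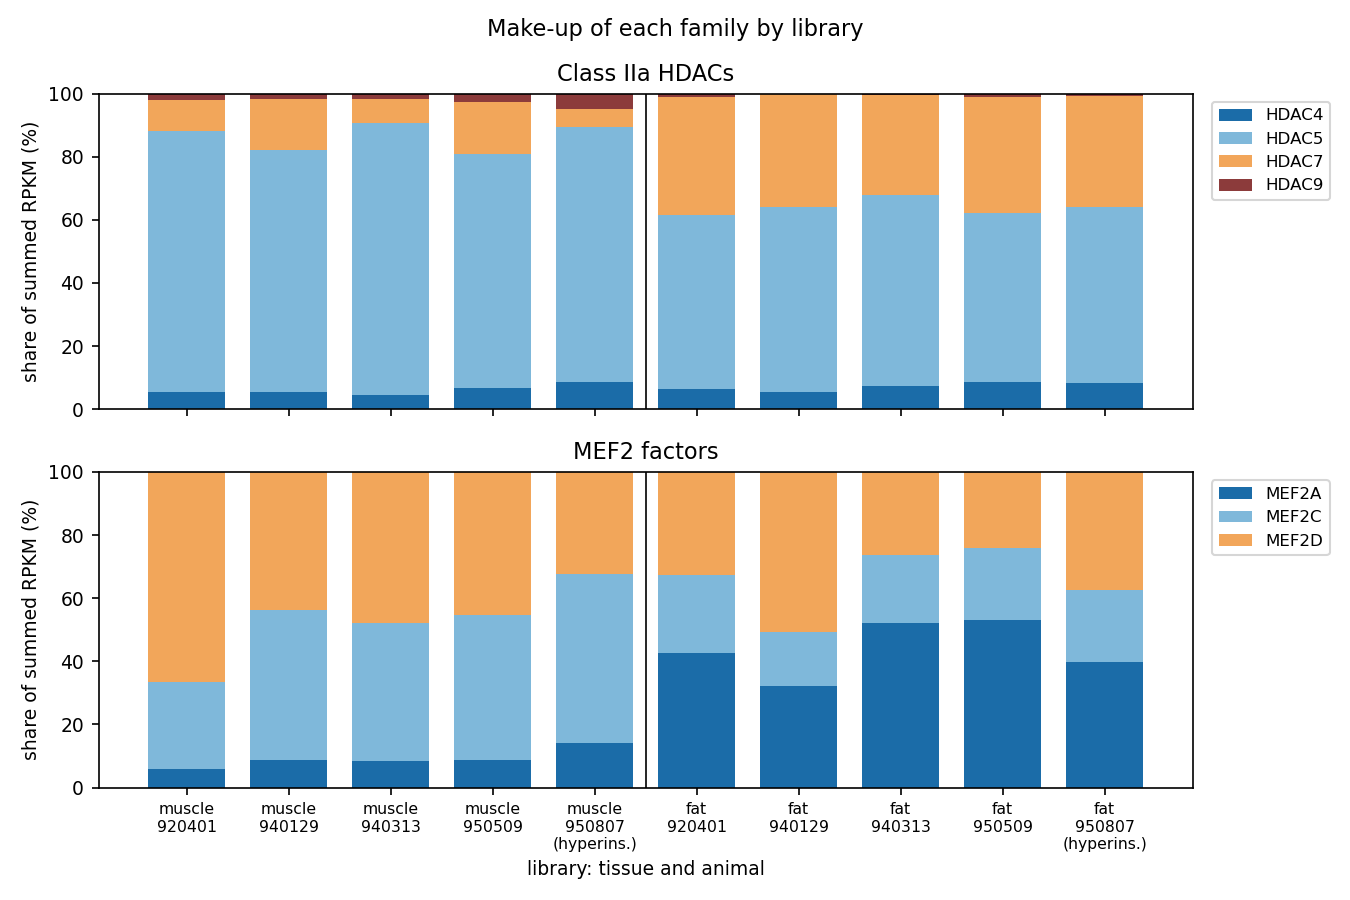
Share of each gene in the summed RPKM of the class IIa HDACs (top) and of the MEF2 factors (bottom), in percent, 1 bar for each library, muscle on the left and adipose tissue on the right. *HDAC7* and *MEF2A* take larger shares in every adipose bar than in any muscle bar, and the muscle bar of the hyperinsulinemic monkey has the smallest *HDAC7* share, 5.60%, and the largest *MEF2C* share, 53.7%.

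The adipose library of control rhesus_940129 stood at the edge of the group for most of these genes. Among the 4 control adipose libraries it had the lowest *MEF2A*, *MEF2C* and *HDAC9* and the highest *HDAC4*, *HDAC5* and *HDAC7*, so that its ratio of MEF2 to HDAC mRNA was 0.369 against 0.894 to 1.13 in the others. *HDAC9* rested on 1 read in this library. The library also had the largest share of reads in its 10 most abundant genes among the adipose libraries, 8.09%, and the highest *ADIPOQ* at 1491 RPKM.

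The hyperinsulinemic monkey was next compared with the controls in skeletal muscle, to ask whether the HDAC and MEF2 mRNA differed in the animal with the *PRKD2* mutation. *PRKD2* itself was at 0.387 RPKM in muscle of rhesus_950807 and at 1.14 to 1.79 RPKM in the controls, and in adipose tissue it lay within the controls, at 3.66 against 3.27 to 6.12 RPKM. *PRKD1*, a related kinase, was above all controls in both tissues, at 0.809 against 0.247 to 0.367 RPKM in muscle, below the filter, and at 6.31 against 3.53 to 4.92 RPKM in adipose tissue. With 1 case, its spread was taken as that of the controls. EdgeR called 0 of the 8306 genes tested (0%) and so 0 of the 6 members tested, with 754 genes and 2 members at an unadjusted p under 0.05. DESeq2 called 88 genes, and *MEF2A* among the members, and limma on log2(RPKM + 1) called 1 gene and 0 members. With scaling to the mapped totals the median log2 difference of all genes moved from −0.03 to 0.14.

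*MEF2A* was at 9.55 RPKM in muscle of the hyperinsulinemic monkey, against 2.74, 4.07, 4.03 and 3.74 RPKM in the controls. The controls lay close together and the case above all of them, from 1756 reads against 573 to 943. This is a log2 difference of 1.22 (standard error 0.283, 95% interval 0.58 to 1.85), with an unadjusted p of 0.00175 and an adjusted p of 0.383 from edgeR. It was 1.08 to 1.39 over 12 alternative settings, with adjusted p values of 0.0356, with DESeq2, to 0.945. *MEF2C* was at 36.5 RPKM in the case and at 12.9, 22.5, 21.3 and 19.5 RPKM in the controls, again above all 4, of which rhesus_920401 was lowest. Its log2 difference was 0.76 (standard error 0.305, 95% interval 0.08 to 1.45, adjusted p 0.510 from edgeR) and ranged from 0.60 to 0.96 over 13 alternative settings. *MEF2D* was at 21.9 RPKM, within the controls at 31.0, 20.7, 23.3 and 19.2 RPKM, and its log2 difference was −0.28 (standard error 0.306, 95% interval −0.97 to 0.41). After TMM scaling the case lay just below the lowest control, at 19.9 against 20.8.

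Among the deacetylases, *HDAC7* was at 1.16 RPKM in the case and at 2.21, 3.13, 1.59 and 2.50 RPKM in the controls. It was the only HDAC below all controls, from 57 reads (exact Poisson 95% interval 43.2 to 73.9, counting error only) against 99 to 161. EdgeR gave a log2 difference of −1.19 (standard error 0.602, 95% interval −2.55 to 0.16, adjusted p 0.598). Endothelial markers summed to 44.5 RPKM in this library, within the controls, with 4 of 10 below all controls and none at 0. Markers of smooth muscle and pericytes summed to 373 RPKM, within the controls at 278 to 402 RPKM, with 7 of 11 below all controls and 1 above. The 1 above, *SYNPO2*, named after its values were seen, was at 303 RPKM against 121 to 215 RPKM in control muscle. It made up most of the sum in the case, so the sum does not show the level of the other markers. The part of these cell types in the level of *HDAC7* was not tested. *HDAC9* was at 1.05 RPKM in the case, from 167 reads, and at 0.493, 0.336, 0.366 and 0.423 RPKM in the controls. It was above all 4, with a log2 difference of 1.21 in the fit without the filter (standard error 0.568, 95% interval 0.02 to 2.40, adjusted p 0.650 from edgeR). *HDAC4* was also above all controls, at 1.76 RPKM against 1.24, 1.04, 0.953 and 1.04 RPKM. Its log2 difference was 0.55 (standard error 0.399, 95% interval −0.35 to 1.44). *HDAC5* at 16.8 RPKM lay amid the controls at 18.7, 15.0, 17.9 and 11.2 RPKM, with a log2 difference of −0.07 (standard error 0.294, 95% interval −0.73 to 0.59) that was 0.10 with the mapped totals.

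Of the 6 members tested in muscle, 3 were above all controls in RPKM and 1 below, where 34.9% and 15.2% of all genes tested were. After TMM scaling 3 were above and 2 below, where 24.3% and 23.8% of all genes were. Genes outside the controls are therefore common in this library, and the counts of the 6 members were not tested against these shares. An exact permutation test of 1 animal against 4, two-sided, cannot give a p below 0.2, and it gave 0.2 for *HDAC4*, *HDAC9*, *MEF2A* and *MEF2C* and 0.4 for *HDAC7*.

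The make-up of both families in this muscle also lay outside the controls. *MEF2A* made up 14.1% of the MEF2 mRNA, against 5.88% to 8.82% in control muscle, and *MEF2C* 53.7% against 27.6% to 47.6%. *MEF2D* made up 32.2%, below the 43.8% to 66.5% of the controls. Of the HDAC mRNA, *HDAC7* made up 5.60% against 7.63% to 16.5%, *HDAC9* 5.06% against 1.72% to 2.79% and *HDAC4* 8.49% against 4.59% to 6.84%, while *HDAC5* at 80.9% lay within the controls. The MEF2 factors summed to 67.9 RPKM against 42.5 to 48.6 RPKM, and the HDACs to 20.8 RPKM against 15.2 to 22.6 RPKM. Markers of slow fibers, in which MEF2 activity is known to be high, summed to 119 RPKM in this library and 503 to 4661 RPKM in control muscle, with 7 of 7 below all controls. The highest sum was that of rhesus_940129, and the other controls had 503 to 745 RPKM. The 8 markers of skeletal muscle fibers found summed to 75779 RPKM, within the controls at 61284 to 79373 RPKM. The part of the fiber make-up in the MEF2 levels was not tested.

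In adipose tissue 5 of the 7 genes of the hyperinsulinemic monkey lay within the controls. EdgeR called 0 of 11981 genes (0%) and 0 of 6 members, with 286 genes and 0 members at an unadjusted p under 0.05. DESeq2 called 11 genes and limma 0, neither with a member. *MEF2A* was at 9.999 RPKM in the case and at 11.4, 4.95, 11.3 and 13.9 RPKM in the controls, and *MEF2C* at 5.70 RPKM against 6.61, 2.60, 4.70 and 5.96 RPKM. Both lay within the controls, with log2 differences of −0.24 (standard error 0.536, 95% interval −1.43 to 0.96) and 0.02 (standard error 0.498, 95% interval −1.09 to 1.13). *HDAC5* and *HDAC7* also lay within, at 18.5 RPKM against 11.7 to 24.3 RPKM and at 11.8 RPKM against 6.08 to 15.0 RPKM, as did *HDAC9* at 0.235 RPKM against 0.00697 to 0.348 RPKM. The log2 differences of *HDAC5*, −0.03 (standard error 0.491), and *HDAC7*, 0.00 (standard error 0.534), changed sign between settings. The intervals of the 6 members reached from −1.43 to 1.41, and each held a log2 difference of 1 or of −1, so that changes of that size or more can have gone without a call.

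*HDAC4* and *MEF2D* were above all controls in adipose tissue, at 2.78 RPKM against 1.94, 2.26, 1.39 and 2.11 RPKM and at 9.35 RPKM against 8.72, 7.78, 5.69 and 6.26 RPKM. Both margins were narrow after TMM scaling, at 2.50 against a highest control of 2.42 and at 8.39 against 8.32. The log2 differences were 0.34 (standard error 0.482) and 0.21 (standard error 0.408), with adjusted p values of 0.9999 from edgeR. Of all genes tested, 27.9% were above all controls in RPKM and 15.7% after TMM scaling, and 7.80% and 14.3% were below, where 0 members were. Macrophage markers summed to 383 RPKM in this library against 110 to 315 RPKM in the controls, with 6 of 7 above all controls, and 5 of 7 fibroblast markers were above all controls. Their part in these levels was not tested.

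**Figure D4:**
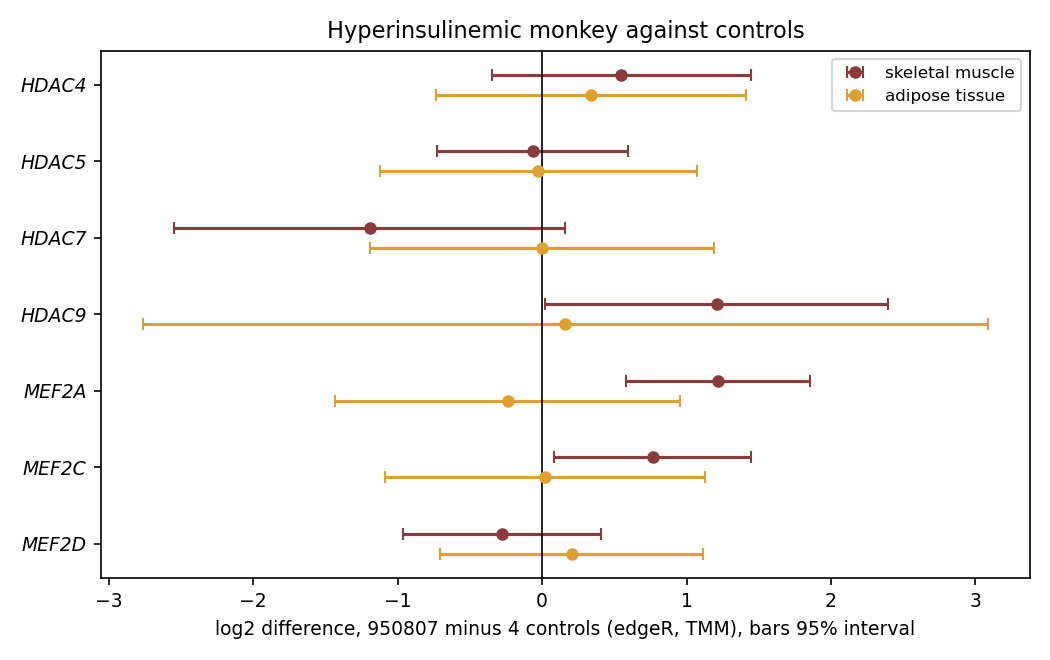
Log2 difference of each gene between the hyperinsulinemic monkey, rhesus_950807, and the 4 controls, with 95% intervals from edgeR with TMM scaling (*HDAC9* without the filter), in muscle (dark red) and adipose tissue (yellow). In muscle the intervals of *MEF2A*, *MEF2C* and *HDAC9* lie above 0, though no adjusted p passed, and other settings changed the sign of *HDAC5* in both tissues and of *HDAC7*, *HDAC9*, *MEF2A* and *MEF2C* in adipose tissue.

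The difference between the tissues was tested by an interaction term over all 10 libraries. For *MEF2A* the difference between case and controls in adipose tissue exceeded that in muscle by −1.45 (standard error 0.686, 95% interval −2.94 to 0.05, unadjusted p 0.0565, adjusted p 0.902 from edgeR). It was 1.26 for *HDAC7* (standard error 0.689), −0.73 for *MEF2C* (standard error 0.653) and 0.54 for *MEF2D* (standard error 0.455). EdgeR called 0 of 7938 genes (0%) and 0 of 6 members, with 434 genes and 0 members at an unadjusted p under 0.05, DESeq2 called 16 genes and 0 members, and limma 0 of either. The tissues were therefore not shown to differ in the effect on any of these genes.

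The genes around the switch were followed from lists of kinases, 14-3-3 proteins, corepressors and MEF2 targets, and 0 of them was called in muscle of the hyperinsulinemic monkey by edgeR. Of 14 kinases other than protein kinase D, 11 were tested, with a median log2 difference of 0.09 beside −0.03 for all genes, and 3 had an unadjusted p under 0.05. *CAMK2D*, a calmodulin-dependent kinase that phosphorylates *HDAC4*, was at 16.5 RPKM in the case and at 6.85, 5.85, 7.30 and 6.17 RPKM in the controls. It was well above all 4, with a log2 difference of 1.16 (standard error 0.242, adjusted p 0.342 from edgeR). *SIK2*, a salt-inducible kinase that sends class IIa HDACs out of the nucleus, was at 2.75 RPKM and at 5.37, 7.37, 6.87 and 9.25 RPKM, below all controls, with a log2 difference of −1.58 (standard error 0.373, adjusted p 0.398). *CAMK2B*, the isoform typical of muscle and brain, was above all controls at 67.5 RPKM against 32.9 to 46.6 RPKM, with a log2 difference of 0.60 (standard error 0.241). In adipose tissue *SIK2* was also below all controls, at 27.5 RPKM against 38.4, 59.2, 35.0 and 70.9 RPKM, with a log2 difference of −1.08 (standard error 0.548, adjusted p 0.9999).

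Among the proteins that hold or assist the deacetylases, 0 had an unadjusted p under 0.05 in muscle. The 4 genes of 14-3-3 proteins tested had a median log2 difference of −0.25, from −0.54 to 0.52 (*YWHAE*, the most abundant, adjusted p 0.611 from edgeR). The 6 corepressor partners had a median of −0.03, with *NCOR1* at 0.48 and *TBL1X* at −0.53. The 4 other HDACs had a median of −0.15, with *HDAC6*, a cytoplasmic tubulin deacetylase, at −0.60 (standard error 0.311). The 12 activators and partners of MEF2 had a median of −0.11. Of these, *MAPK14*, the p38 kinase that phosphorylates MEF2A and MEF2C, was at 6.59 RPKM in the case and at 3.84, 3.02, 2.88 and 2.71 RPKM in the controls. It was above all controls, with a log2 difference of 0.91 (standard error 0.338, adjusted p 0.497 from edgeR).

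The 11 MEF2 target genes tested in muscle did not move one way. Their median log2 difference was −0.18 with TMM and −0.01 with the mapped totals, beside −0.03 and 0.14 for all genes, with 3 above 0 and 8 below with TMM. *SLC2A4* was at 82.3 RPKM in the case and at 148, 147, 148 and 112 RPKM in the controls. It was below all controls, with a log2 difference of −0.93 (standard error 0.275, adjusted p 0.482 from edgeR). *TNNC1*, the troponin C of slow fibers and heart, was at 43.3 RPKM and at 178, 1530, 168 and 238 RPKM. The controls were far apart and the case below them, with a log2 difference of −3.76 (standard error 1.39, adjusted p 0.497), and *TNNC1* is also a slow fiber gene, as are those summed above. *SMYD1*, a methyltransferase of the sarcomere, and *SRPK3*, a muscle kinase that depends on MEF2C, were above all controls, at 125 RPKM against 71.5 to 85.4 RPKM and at 46.6 RPKM against 24.4 to 34.2 RPKM. Their log2 differences were 0.49 (standard error 0.248) and 0.50 (standard error 0.254).

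**Figure D5:**
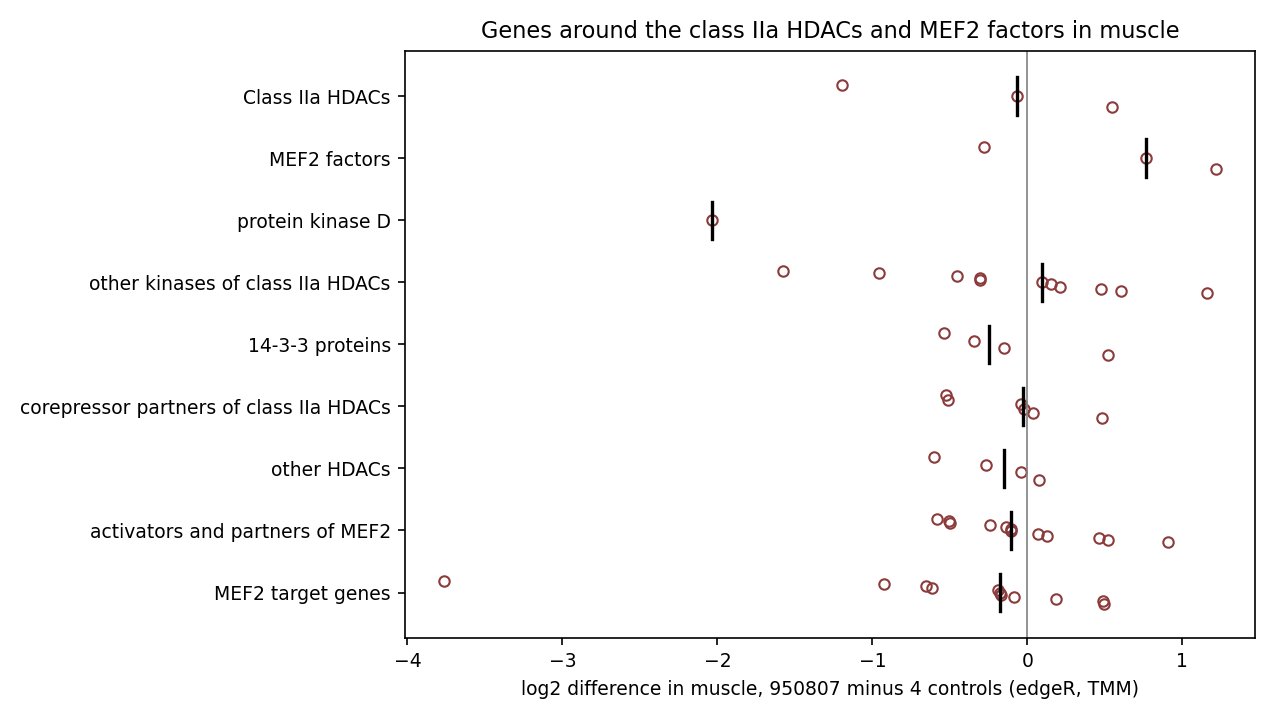
Log2 difference in muscle between rhesus_950807 and the 4 controls (edgeR, TMM) for each tested gene of the lists around the switch. Each circle is a gene and each black line the median of its list, and none of the genes was called. *TNNC1* lies at −3.76 among the MEF2 target genes and *PRKD2* at −2.04 as the only protein kinase D gene tested.

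In adipose tissue 0 genes of these lists were called either, and at an unadjusted p under 0.05 stood 1, the myoglobin gene *MB* among the MEF2 targets. *MB* was at 0.269 RPKM in the case and at 35.7, 1.51, 19.9 and 0.475 RPKM in the controls, the high values being those of the libraries with *ACTA1* mRNA. *SLC2A4* was at 34.5 RPKM in the case and at 50.9, 139, 61.4 and 68.3 RPKM in the controls. It was below all controls as in muscle, with a log2 difference of −1.43 (standard error 0.656, adjusted p 0.9999 from edgeR). The libraries of both tissues come from the same case.

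Between the tissues of the controls, 10 of 12 MEF2 target genes tested were lower in adipose tissue with TMM and 0 higher, and 9 were lower and 1 higher with the mapped totals. Their median log2 difference was −8.75 with TMM and −7.42 with the mapped totals, beside 0.23 and 1.61 for all genes, and several of them are genes of the contractile apparatus of muscle. *SMYD1* had −11.08 (standard error 1.03), *SRPK3* −9.50 (standard error 0.564), *DES*, which encodes desmin, −8.71 (standard error 0.740) and *MYOM1*, a protein of the M band, −4.81 (standard error 0.351), all called lower by edgeR. Of the 16 activators and partners of MEF2, 8 were lower and 1 higher with TMM, and 6 lower and 5 higher with the mapped totals, where all genes had 22.0% lower and 29.6% higher with TMM and 7.15% and 63.0% with the mapped totals. The lower ones under both scalings included the muscle factors *MYOD1* at −9.61 and *MYF6* at −8.58, the p38 kinase *MAPK12* at −5.19 and the calcineurin subunit *PPP3CB* at −2.83.

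The kinases that act on class IIa HDACs differed between the tissues in both directions. Of the calmodulin-dependent kinases, those of the CAMK2 group were the lower ones in adipose tissue. *CAMK2B* was at 32.9 to 46.6 RPKM in control muscle and 0.0122 to 0.280 RPKM in control adipose tissue, a log2 difference of −9.60 (standard error 0.641, adjusted p 3.30e-07 from edgeR). *CAMK2A* had −6.99 and *CAMK2G* −3.58, all lower with the mapped totals too, while *CAMK2D* was called lower with TMM alone, at −1.58, and stood at −0.20 with the mapped totals. *CAMK1*, named after its values were seen, was the other way, at 1.31 to 2.67 RPKM in control muscle and 16.0 to 44.2 RPKM in control adipose tissue, a log2 difference of 2.18 (standard error 0.370, adjusted p 0.000356 from edgeR) with TMM and 3.55 with the mapped totals. *CAMK1D*, also named after its values were seen, had 0.91, not called, with TMM and was called higher, at 2.32, with the mapped totals. Of protein kinase D, *PRKD1* was higher in adipose tissue by 2.39 (standard error 0.318, adjusted p 6.13e-05) and *PRKD3* by 2.70 (standard error 0.428, adjusted p 0.000218). *PRKD2* had 0.42 (standard error 0.294, adjusted p 0.229) with TMM and was called higher, at 1.79, with the mapped totals. Over the 13 kinases tested besides protein kinase D, 3 were higher and 5 lower with TMM, and 6 higher and 4 lower with the mapped totals. The 8 of 13 called with TMM stand beside the 51.6% of all genes, and the 6 higher with the mapped totals beside 63.0%.

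The 14-3-3 genes and corepressors were called in both directions with TMM, and with the mapped totals those called were higher, as were most of all genes. *YWHAZ* was at 5.86 to 9.04 RPKM in control muscle and 93.0 to 139 RPKM in control adipose tissue, a log2 difference of 2.58 (standard error 0.235, adjusted p 3.70e-06 from edgeR). Of 5 such genes tested, 3 were higher and 1, *YWHAE*, lower with TMM, and with the mapped totals 4 were higher and 0 lower. Of 8 corepressor partners, 3 were higher, *TBL1X* at 2.21 among them, and 3 lower with TMM, *CTBP1* at −1.75 and *BCOR* at −1.62 among them. Of all genes tested, 29.6% were higher, 22.0% lower and 51.6% called in all with TMM. With the mapped totals 4 of the 8 were higher, where 63.0% of all genes were, and 0 lower. Of 6 other HDACs, *HDAC10* was higher under both scalings, at 3.26 and 4.63, and *HDAC11* was called lower with TMM alone, at −1.06, and stood at 0.35 with the mapped totals.

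Profiles over the 10 libraries were compared by the root mean square distance of log2(RPKM + 1), centred on each gene, over 8511 named genes whose mean reached 1 RPKM. Nearest to *MEF2C* was *LRRFIP2* (distance 0.209), then *UBE2G1* and *LIMCH1* (0.304), which had 22.7, 51.3 and 32.2 RPKM in muscle of the hyperinsulinemic monkey and means of 11.8, 32.0 and 14.5 RPKM in control muscle. Nearest to *MEF2A* were *RAD17* (0.138), *CUL2* and *CHUK* (0.160), of which *CHUK* encodes a kinase of the NF-κB pathway. They were at 1.59, 7.13 and 3.93 RPKM in this muscle library and at 0.443, 2.74 and 1.45 RPKM on average in control muscle. The distance covers all 10 libraries, this one included, so a like level there belongs to the choice of these genes. Nearest to *MEF2D* were *MLXIP* (0.122), which encodes a glucose-sensing transcription factor, *DENND4B* and *DUSP8* (0.188).

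For the deacetylases, *HDAC5* had the closest profile of all, that of *CENPB* (0.0913), which binds centromeres, followed by *ZNF512B* and *ZDHHC8* (0.113). *HDAC4* was nearest to *GIGYF1* (0.0925), *GNB1L* and *CCNY* (0.104), and *HDAC7* to *ADAM15* (0.145), *LRRC8A* and *MOXD1* (0.167). *ADAM15* was at 5.59 RPKM in muscle of the hyperinsulinemic monkey and at 8.87 ± 1.08 RPKM in control muscle (SD, n = 4), which the choice by distance likewise favors. *HDAC9* was nearest to *USP10* (0.136), *CSNK2A1* and *TXNL4A* (0.155), but its low level leaves little of its profile beyond the added 1 RPKM.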

How the data were processed

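From 5 male rhesus monkeys, poly(A) RNA of muscle and fat was sequenced as strand-specific libraries, 30669915 to 43268985 mapped reads each, of which 48.2% to 64.6% were counted in genes. The authors deposited read counts and RPKM for 28595 Ensembl genes, and RPKM equaled counts divided by the longest transcript and the mapped total. Reads were mapped with TopHat, release 1.2.0 in the submitters' processing notes, where the paper names another; for counting tool, build and annotation nothing is given in the sources used here. A name table gave symbols to 15556 genes (54.4%). Replicates are separate animals, and no 2 control libraries of a tissue agreed within sampling noise.

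Counts were tested with edgeR 4.0.16 (quasi-likelihood, TMM, two-sided, Benjamini-Hochberg over all genes whose mean reached 1 RPKM, R 4.3.3), after tests on simulated data. Of simulated 4-fold changes, 61% were called for the case in muscle, 5% in adipose tissue, 1% for the interaction and 79% between tissues. Of 2-fold changes, 4%, 0%, 0% and 8% were called, so a lack of calls does not show a lack of change. A call needed an adjusted p under 0.05, between tissues also an absolute log2 difference of at least 1. *HDAC9* lay below the filter, so its differences come from the same fit without it. Alternatives were DESeq2 1.42.0, limma 3.58.1 on log2(RPKM + 1) and log2(RPKM + 0.1), other scalings and filters, each control left out, and an animal block. The numbers pair the samples, since both tissues come from the same animal; across genes, muscle and adipose deviations of the same control correlated by −0.213 to 0.146. Family shares were planned with a permutation test and are given without one. Members and lists were chosen with earlier results of these data known. Named are the 7 genes, the *PRKD* genes, up to 4 genes of each list with the smallest p, the 3 nearest profiles of each gene and tissue markers.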

Additional observations from a re-analysis of the deposited data

How the results depend on the processing

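In muscle of the hyperinsulinemic monkey edgeR called 0 genes, median-of-ratios scaling and limma with a pseudocount of 1 or 0.1 called 1 each, the mapped totals 3, no filter 10 and DESeq2 88, and fits without 1 control called 0 to 14, with 14 for rhesus_940313. Of the members, *MEF2A* was called with DESeq2 (1 member) and 0 under the other settings. In adipose tissue DESeq2 called 11 genes, 33 were called once the adipose libraries of rhesus_920401 and rhesus_940313 were dropped, and fits without 1 control called 0 to 6, with 6 for rhesus_920401, while for the difference between tissues DESeq2 called 16. Between tissues of controls 5767 genes were called, 3325 with a filter at 5 RPKM, where fewer genes are tested. With the animal as a replicate block 5712 were called, and the block changed no call of a member.

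Several differences changed sign between settings. With edgeR and TMM only that of *HDAC5* between tissues of controls was called among them, at −1.33. It was not called where its sign changed. In muscle *HDAC5* became 0.0995 with the mapped totals and 0.118 and 0.126 with limma, and −0.175 to 0.00887 without 1 control, the latter for rhesus_920401. In adipose tissue *HDAC5* became 0.175, 0.218 and 0.232 under the same settings and −0.117 to 0.261 without 1 control, the latter for rhesus_940129. *MEF2A* there became 0.0319 and 0.0452 with limma. *HDAC7* there was −0.00811 with no filter, −0.24 without the 2 adipose libraries and −0.0393 in a fit of all 10 libraries, and −0.15 to 0.28 leaving out a control. *MEF2C* there was −0.0368 in the fit of all 10 libraries and −0.18 to 0.14 leaving out a control, *HDAC9* −0.23 to 0.58, both lowest without rhesus_940129. The effect on *HDAC5* in adipose tissue minus muscle was −0.0719 without the 2 adipose libraries and −0.0284 to 0.42 leaving out a control. Between tissues of controls *HDAC4* became 0.850 with the mapped totals and 0.492 and 0.778 with limma, *HDAC5* 0.0611, 0.0293 and 0.0297, and *MEF2A* was −0.00954 to 0.322 leaving out a control. The cause was not tested. Of the differences of single genes, 318 stayed as they were in sign and call, 30 changed sign, 8 gained a passing p or size and 3 lost it. Family shares without overlap numbered 5, and 6 without rhesus_940129. With the tissues compared within each animal (replicate block), 6 shares differed in the same direction in every control, which is another measure than overlap. Counted in reads, 3 shares, those of *HDAC4*, *HDAC5* and *HDAC7*, differed by 2.79, −11.3 and 9.78 percentage points in place of 1.39, −22.9 and 22.9. A muscle setting without the 2 adipose libraries does not exist.

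With 1 case, none of its differences can be told apart from a difference between animals. At 57 reads, counting error is part of the uncertainty of *HDAC7* in muscle of this case. The controls also differed among themselves, at 1.59 to 3.13 RPKM. No group of 4 controls held an animal beyond Dixon's critical value in the 34 groups of levels and shares examined.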
